A study of Mus musculus with 7 samples.

Results

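A set of 10 Wnt pathway genes were followed through RNA-seq of mouse islets: the co-receptors Lrp5 and Lrp6, the Dishevelled genes Dvl1, Dvl2 and Dvl3, the destruction complex genes Axin1, Axin2 and Gsk3b, and the effectors Ctnnb1 and Tcf7l2. They were picked by gene symbol, 10 of the 55487 genes in the deposited count table, and all 10 passed the filter on low counts. Dvl3 had been seen to be higher in every Traf6 KO library in an earlier analysis of the same counts, so the difference of each of these genes between genotypes is given as a description, without a test.

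The Traf6 KO libraries (n = 3) came from mice with a beta-cell specific deletion of Traf6, which encodes a ubiquitin ligase of innate immune signalling. The control libraries (n = 4) are labelled only as control. Both genotypes were kept on a 60% fat diet for 15 weeks, and their islets were left in medium for 24 hours before RNA was taken. No source used here gives the driver of the deletion, the strain, the age or the sex of the mice. Each library carries an animal tag of its own. The RNA is that of whole islets, so deletion in beta cells is read through all the cells of the preparation.

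Wnt ligands bind Frizzled receptors together with LRP5 or LRP6, and Dishevelled proteins are recruited to the receptor, where they take Axin away from the complex that marks beta-catenin for destruction. In that complex Axin is the scaffold, APC holds beta-catenin, and GSK3B phosphorylates it. Beta-catenin that escapes enters the nucleus and works with TCF and LEF factors such as TCF7L2, and Axin2 is a common target gene that feeds back on the pathway. In the pancreas, common variants at the human TCF7L2 locus are linked to type 2 diabetes, and mice without Lrp5 secrete less insulin in response to glucose.

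The libraries held 22104256 to 25091055 counts in Traf6 KO and 22161097 to 29917292 in control. Levels are CPM, the count set to a library of fixed size, with totals adjusted by the trimmed mean of M values (TMM), a factor that corrects for a few genes taking a large part of a library. Traf6 itself had 14.7, 15.3 and 14.5 CPM in Traf6 KO 1 to 3, against 17.9, 25.5, 22.1 and 12.6 CPM in control 1 to 4. The lowest value of the 7 was that of the library labelled control 4, so Traf6 did not separate the groups, and that library is named by its label throughout. The 15 acinar markers (digestive enzymes and their regulators) took 40.8%, 32.1% and 1.22% of the counts in Traf6 KO 1 to 3, against 14.6%, 0.357%, 0.343% and 2.44% in control 1 to 4. The 10 beta-cell markers took 5.80% to 12.1% of the counts in Traf6 KO and 18.1% to 23% in control. In such bulk samples, fewer cells of a type and less RNA per cell cannot be told apart. Traf6 KO 3 alone had high Xist and no counts of Y-linked genes.

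Across all genes, edgeR's quasi-likelihood test called 0 of 16203 tested genes higher and 0 lower at an adjusted p under 0.05 (0% in each direction), and limma-voom also called 0 in each direction, while DESeq2's Wald test put 489 genes (3.02%) higher and 255 (1.57%) lower. An unadjusted edgeR p under 0.05 was found for 2589 genes (16%). Without Traf6 KO 3, edgeR called 568 of 16540 genes (3.43%) higher and 133 (0.804%) lower. Of the 10 genes followed, 8 had a log2 fold change above 0, as did 50.7% of all tested genes. In 3 of them (Dvl3, Lrp6 and Ctnnb1) every Traf6 KO library was above every control library, and in 0 every Traf6 KO library was below. Over all tested genes these patterns were met by 5.58% and 8.68%. Their median log2 fold change was 0.19, beside 0.01 over all tested genes. The count and the median belong to the contrast that chose the genes and carry no weight as a test.

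**Figure D1:**
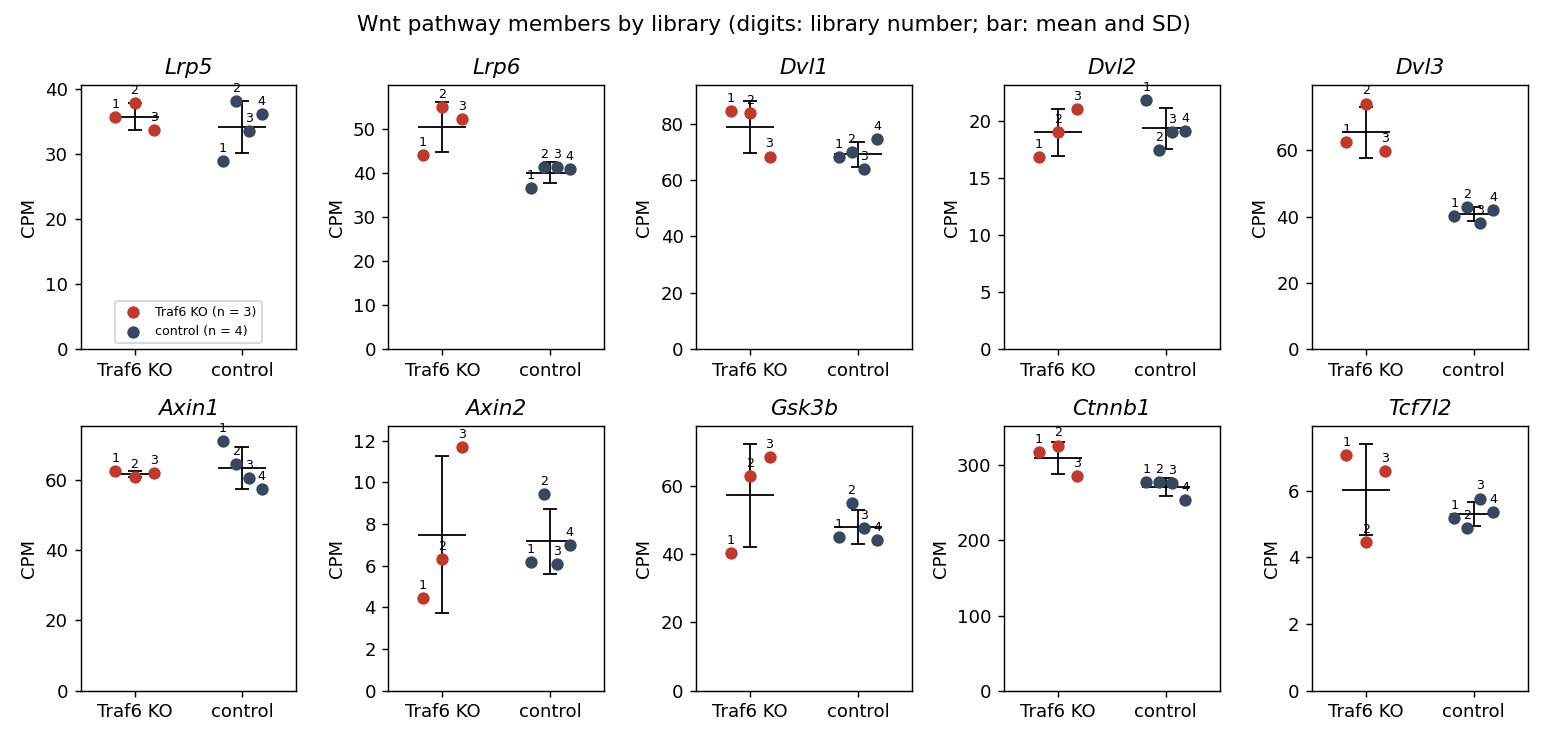
Level of each gene in CPM on TMM-scaled totals (y axis, from 0) in every library, with Traf6 KO (n = 3, red) left of control (n = 4, blue), digits giving the library number and bars the mean and SD. Dvl3 is the gene with the widest empty space between the groups, 59.7 to 74.1 CPM in Traf6 KO and 38.0 to 43.1 CPM in control.

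The Dishevelled genes encode the cytoplasmic adaptors that link Frizzled to the Axin complex and also to planar cell polarity. Dvl3 (ENSMUSG00000003233, GRCm38 chr16:20516982-20534010, plus strand) had 62.6, 74.1 and 59.7 CPM in Traf6 KO 1 to 3, against 40.3, 43.1, 38.0 and 42.0 CPM in control 1 to 4. The lowest Traf6 KO library stood 16.6 CPM above the highest control library, and the means were 65.5 ± 7.63 CPM in Traf6 KO (SD, n = 3) and 40.9 ± 2.21 CPM in control (SD, n = 4), a 1.60-fold difference and a log2 fold change of 0.68 ± 0.10 (SE). The counts behind these levels were 692, 1376 and 1842 in Traf6 KO and 1151 to 1545 in control. Among all tested genes, 9.46% had a larger log2 fold change.

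Dvl1 (ENSMUSG00000029071, chr4:155847402-155859303, plus strand) had 84.5, 83.7 and 68.3 CPM in Traf6 KO 1 to 3, against 68.3, 69.9, 63.7 and 74.6 CPM in control 1 to 4. Traf6 KO 1 and 2 lay above every control library, while Traf6 KO 3 lay among them, and the log2 fold change was 0.19 ± 0.11 (SE). Dvl2 (ENSMUSG00000020888, chr11:70000595-70012301, plus strand) had 16.9, 19.1 and 21.1 CPM in Traf6 KO, against 21.9, 17.5, 19.1 and 19.2 CPM in control, with overlapping groups and a log2 fold change of -0.03 ± 0.12 (SE). Up to 19.7% of its exonic length overlaps other genes, among them Acadvl on the opposite strand and Mir324. No source used here gives the strand setting of the counting. A share of length does not give the share of counts, so the level of Dvl2 is uncertain by an unknown amount.

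The sequences around the start sites of the Dishevelled genes are shown because the share of Dvl3 among these paralogs differed between the groups. Each window runs from 250 bases before to 50 bases after a start in RefSeq on GRCm38.p6, all on the plus strand: Dvl1 at chr4:155847152-155847451, Dvl2 at chr11:70000342-70000641 and Dvl3 at chr16:20516736-20517035. Capitals mark the GC box GGGCGG and the E-box CACGTG, each searched on both strands (the GC box on the minus strand reads CCGCCC); neither overlaps the other, and a pair of GC boxes in Dvl1 shares 1 base.
Dvl1: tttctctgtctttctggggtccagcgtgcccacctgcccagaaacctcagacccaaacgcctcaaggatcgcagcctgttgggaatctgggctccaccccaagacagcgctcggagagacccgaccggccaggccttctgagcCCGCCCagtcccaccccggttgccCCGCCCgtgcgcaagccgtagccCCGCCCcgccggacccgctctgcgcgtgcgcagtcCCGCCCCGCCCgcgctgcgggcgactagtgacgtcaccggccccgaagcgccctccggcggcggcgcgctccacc
Dvl2: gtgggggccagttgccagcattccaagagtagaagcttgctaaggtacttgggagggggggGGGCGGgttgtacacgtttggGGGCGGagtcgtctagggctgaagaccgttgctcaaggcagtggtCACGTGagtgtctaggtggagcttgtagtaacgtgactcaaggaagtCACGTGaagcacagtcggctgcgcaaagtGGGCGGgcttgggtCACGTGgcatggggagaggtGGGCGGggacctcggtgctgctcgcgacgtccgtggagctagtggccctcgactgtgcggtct
Dvl3: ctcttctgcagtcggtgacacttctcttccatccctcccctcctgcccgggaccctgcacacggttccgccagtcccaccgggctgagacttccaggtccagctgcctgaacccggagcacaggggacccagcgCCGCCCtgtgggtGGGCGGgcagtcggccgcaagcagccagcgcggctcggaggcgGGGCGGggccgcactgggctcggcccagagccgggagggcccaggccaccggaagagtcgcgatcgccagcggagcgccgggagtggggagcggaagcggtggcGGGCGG

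The window of Dvl3 was 74% G and C, that of Dvl1 72.3% and that of Dvl2 62%, beside a median of 52.7% over 32851 windows of the same length. CpG dinucleotides numbered 30 in Dvl3, 35 in Dvl1 and 20 in Dvl2, beside a median of 7. GC boxes numbered 4 in Dvl3, 5 in Dvl1 and 4 in Dvl2, and 35.7% of all windows held at least 1. The E-box was found 3 times in Dvl2 and not in the other windows shown, and 7.15% of all windows held it. The letters of the TCF motif (CTTTGAA, or the same with AT, TA or TT at its end, both strands), held by 16.9% of all windows, were not in these 3 windows or in that of Axin2. These matches describe the letters only. Windows were found for 7 of the 10 genes, with none for Lrp5, Lrp6 and Axin1.

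A comparison of paralogs within a library does not depend on how libraries are scaled. There were 0.741, 0.885 and 0.873 Dvl3 counts for each Dvl1 count in Traf6 KO 1 to 3, against 0.591, 0.616, 0.596 and 0.564 in control 1 to 4. The groups did not overlap, with means of 0.833 ± 0.0800 in Traf6 KO (SD, n = 3) and 0.592 ± 0.0215 in control (SD, n = 4). The ratio of Dvl3 to Dvl2 counts was 3.70, 3.89 and 2.83 in Traf6 KO, against 1.84, 2.46, 1.99 and 2.19 in control, also without overlap. Dvl3 had been seen to be higher in every Traf6 KO library, so these ratios describe that difference and are no separate support for it. Few exonic 31-base words of Dvl3 occur in the other genes followed (10) or anywhere else in the annotated transcripts (2.70% of its words).

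Per kilobase of exon, Dvl3 made up 33.3%, 36.9% and 35.3% of the summed Dishevelled level in Traf6 KO 1 to 3, against 26.9%, 28.6%, 27.3% and 26.7% in control 1 to 4. Dvl1 remained the most abundant paralog per length, with 57.6%, 53.5% and 51.9% in Traf6 KO, against 58.3%, 59.6%, 58.7% and 60.8% in control, so its share was lower in every Traf6 KO library. Dvl2 held 9.15%, 9.66% and 12.7% in Traf6 KO, against 14.8%, 11.8%, 13.9% and 12.4% in control, with overlap through Traf6 KO 3. The summed level was 29.4, 31.4 and 26.3 CPM per kb in Traf6 KO, against 23.4, 23.5, 21.7 and 24.5 CPM per kb in control.

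**Figure D2:**
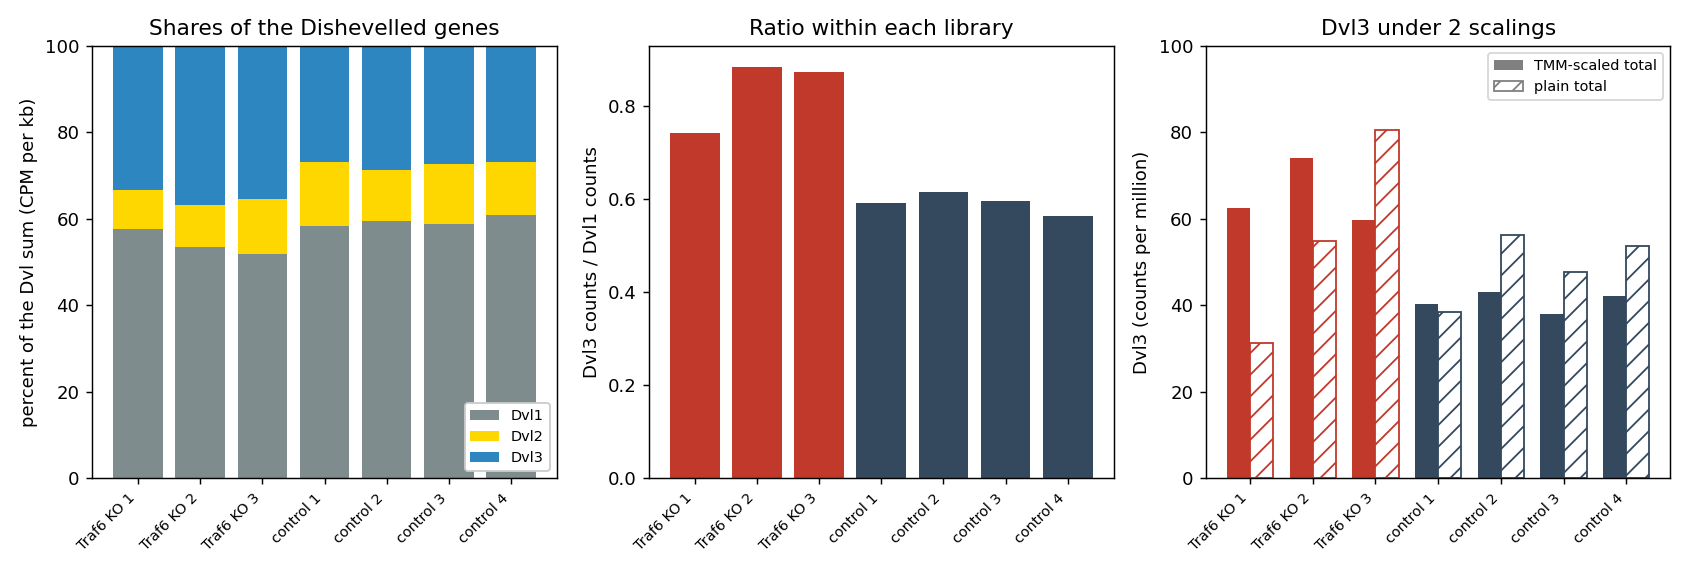
Left, percent of the summed Dishevelled level (CPM per kb of exon) held by Dvl1, Dvl2 and Dvl3 in each library; middle, Dvl3 counts per Dvl1 count; right, Dvl3 in CPM of the TMM-scaled total (filled) and of the plain total (hatched), with Traf6 KO in red and control in blue. The ratio to Dvl1 is 0.741 or more in Traf6 KO and 0.616 or less in control, whereas the hatched bars of the groups overlap.

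The size of the Dvl3 difference depended on the scaling of the libraries. On plain library totals, Dvl3 had 31.3, 54.8 and 80.6 CPM in Traf6 KO 1 to 3, against 38.5, 56.2, 47.7 and 53.7 in control 1 to 4, and the groups overlapped. The log2 fold change was then 0.18, but the median of all genes was itself shifted to -0.46, so relative to that median Dvl3 stood at 0.64. On plain totals none of the 10 genes had every Traf6 KO library above every control library, and Dvl3 was the only 1 of them with a fold change above 0.

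Acinar marker share also differed between the libraries, and Dvl3 was set beside it. In the 3 acinar-rich libraries, Dvl3 had 62.6 and 74.1 CPM in Traf6 KO 1 and 2, against 40.3 CPM in control 1. Among the libraries poor in acinar markers, it had 59.7 CPM in Traf6 KO 3, against 43.1, 38.0 and 42.0 CPM in control 2, control 3 and the library labelled control 4. Dvl3 had been seen to be higher in every Traf6 KO library, so the same direction in both sets was fixed in advance. The log2 fold change was 0.62 ± 0.13 (SE) once the acinar level was fitted beside genotype and 0.53 ± 0.12 (SE) without the acinar-rich libraries, where Traf6 KO is a single library assumed to vary like the controls. That library, Traf6 KO 3, was also the only one with high Xist and no Y-linked counts, and its 8 lymphocyte markers summed to 442 CPM, against at most 66.3 CPM in a control library. The beta-cell marker share was lower in every Traf6 KO library, as Dvl3 was higher in every one. The part of sex, lymphocyte RNA and beta-cell share in the Dvl3 values was not tested. By the letter of the animal tags, the S-tagged pair had 59.7 CPM in Traf6 KO 3 and 42.0 CPM in the library labelled control 4, and the Q- and R-tagged libraries alone gave a log2 fold change of 0.76.

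The co-receptors LRP5 and LRP6 are paralogous single-pass proteins whose phosphorylated tails hold Axin at the membrane. Lrp6 (ENSMUSG00000030201, chr6:134446476-134566965, minus strand) had 44.0, 54.9 and 52.2 CPM in Traf6 KO 1 to 3, against 36.5, 41.4, 41.3 and 40.9 CPM in control 1 to 4. Every Traf6 KO library was above every control library, with a gap of 2.58 CPM, means of 50.4 ± 5.69 CPM in Traf6 KO (SD, n = 3) and 40.0 ± 2.37 CPM in control (SD, n = 4), and a log2 fold change of 0.33 ± 0.11 (SE). The gap is narrow beside the spread of the Traf6 KO libraries, and on plain totals the fold change was -0.12, which is 0.34 relative to the median of all genes.

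Lrp5 (ENSMUSG00000024913, chr19:3584828-3686564, minus strand) had 35.7, 37.9 and 33.7 CPM in Traf6 KO, against 28.9, 38.2, 33.6 and 36.2 CPM in control. The groups overlapped and the log2 fold change was 0.06 ± 0.12 (SE). Lrp6 counts per Lrp5 count were 1.23, 1.45 and 1.55 in Traf6 KO, against 1.26, 1.08, 1.23 and 1.13 in control, with overlap through Traf6 KO 1.

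Of the destruction complex genes, Axin1 (ENSMUSG00000024182, chr17:26138688-26195811, plus strand), the constitutive scaffold, had 62.5, 61.0 and 61.9 CPM in Traf6 KO 1 to 3, against 71.1, 64.6, 60.5 and 57.4 CPM in control 1 to 4. The Traf6 KO libraries were close together inside the range of the control libraries, and the log2 fold change was -0.04 ± 0.10 (SE). Dvl3 counts per Axin1 count were 1.00, 1.22 and 0.964 in Traf6 KO, against 0.567, 0.666, 0.628 and 0.733 in control. Dvl3 RNA was thus higher relative to Axin1 RNA in every Traf6 KO library, and protein was not measured.

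Axin2 (ENSMUSG00000000142, chr11:108920349-108950783, plus strand), the inducible scaffold and a widely used readout of beta-catenin activity, had 4.43, 6.30 and 11.7 CPM in Traf6 KO, against 6.16, 9.45, 6.06 and 6.99 CPM in control. Traf6 KO held both the lowest and the highest library, and the log2 fold change was 0.08 ± 0.33 (SE). The lowest value rests on 49 counts, with an exact 95% Poisson interval of 36.3 to 64.8 that covers counting error only. The sign followed the libraries: it was 0.45 with the acinar covariate, 0.63 without the 3 acinar-rich libraries and -0.41 without Traf6 KO 3. Axin2 counts per Ctnnb1 count were 0.0139, 0.0193 and 0.0409 in Traf6 KO, against 0.0221, 0.0340, 0.0219 and 0.0276 in control, with overlap.

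Gsk3b (ENSMUSG00000022812, chr16:38089001-38246084, plus strand), the kinase of the complex, had 40.2, 62.7 and 68.5 CPM in Traf6 KO, against 44.9, 55.0, 47.7 and 44.0 CPM in control. Traf6 KO 1 was below every control library and the other Traf6 KO libraries above every one, with a log2 fold change of 0.26 ± 0.18 (SE). It was 0.46 with the acinar covariate and 0.48 without the acinar-rich libraries. In Axin2 and Gsk3b the Traf6 KO libraries thus ordered inversely to their acinar share, and the part of acinar RNA in these values was not tested further.

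Ctnnb1 (ENSMUSG00000006932, chr9:120929216-120960507, plus strand) encodes beta-catenin, which also joins cadherins at cell contacts. It had 318.0, 326.4 and 285.9 CPM in Traf6 KO 1 to 3, against 278.3, 277.7, 276.1 and 253.4 CPM in control 1 to 4. Every Traf6 KO library was above every control library, but the gap of 7.62 CPM was smaller than the SD within either group, with means of 310.1 ± 21.3 CPM in Traf6 KO (SD, n = 3) and 271.4 ± 12.0 CPM in control (SD, n = 4) and a log2 fold change of 0.19 ± 0.12 (SE). It was 0.08 without the acinar-rich libraries and -0.31 on plain totals, which is 0.15 relative to the median of all genes. Its exons overlap other genes, Ulk4 on the opposite strand among them, over 15.1% of their length.

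Tcf7l2 (ENSMUSG00000024985, chr19:55741820-55933654, plus strand), the transcription factor, had 7.06, 4.47 and 6.57 CPM in Traf6 KO, against 5.18, 4.88, 5.76 and 5.37 CPM in control. Traf6 KO held the lowest and the highest library, and the log2 fold change was 0.19 ± 0.20 (SE). The fewest counts behind a value were 78, in Traf6 KO 1.

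Per kilobase of exon, the order of the levels over all 7 libraries was led by Ctnnb1 with a mean of 55.5 CPM per kb, above 97.1% of tested genes. Axin1 (16.4 CPM per kb) and Dvl1 (14.7) came next and did not separate, Axin1 being above Dvl1 in 5 of 7 libraries. Dvl3 (8.02 CPM per kb) and Gsk3b (5.27) followed, each above its next neighbour in all 7 libraries. Lrp5 (3.58 CPM per kb), Lrp6 (3.25) and Dvl2 (3.06) lay close together, with Lrp5 above Lrp6 in 5 libraries and Lrp6 above Dvl2 in 4. Axin2 (1.33 CPM per kb) and Tcf7l2 (0.640) were last, Tcf7l2 above 20.5% of tested genes.

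**Figure D3:**
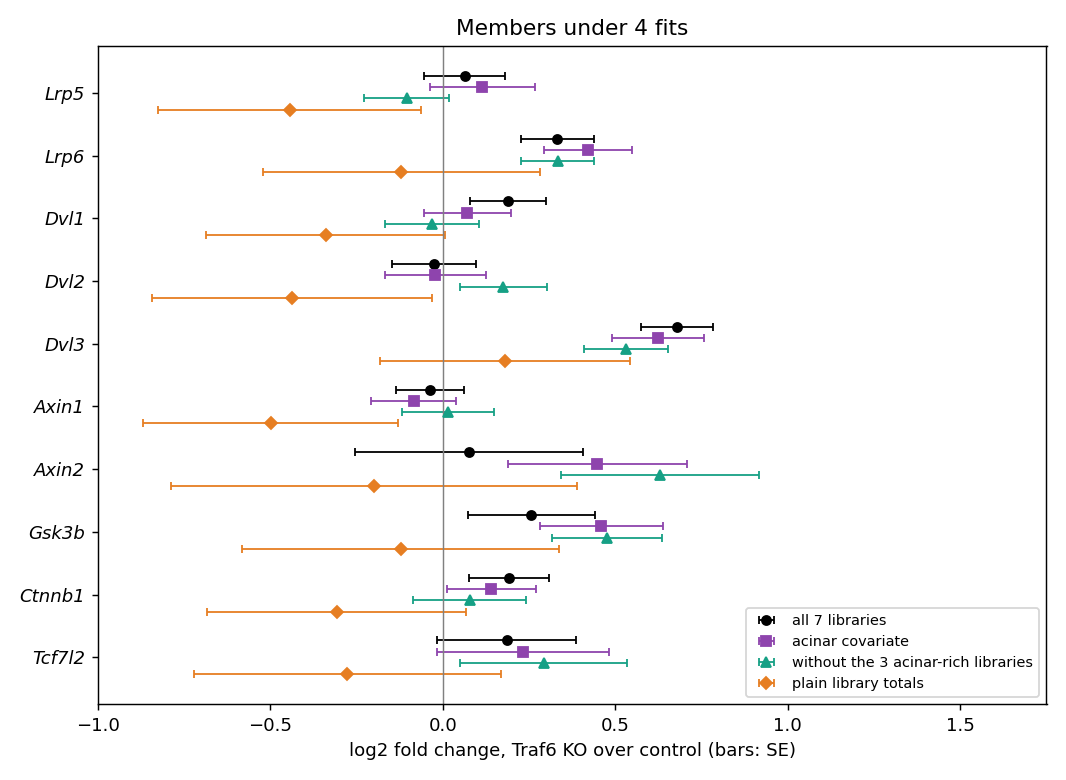
Log2 fold change of each gene, Traf6 KO over control, with SE bars, in all 7 libraries (black), with acinar level fitted beside genotype (purple), without the 3 acinar-rich libraries (green) and on plain library totals (orange). Dvl3 is at 0.68, 0.62, 0.53 and 0.18, and is the only gene above 0 in the fit on plain totals, where the median of all genes is -0.46.

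The genes with the profile most like that of Dvl3 were sought among 12738 tested genes with a named symbol and a mean of at least 1 CPM, by the root mean square difference of centred log2(CPM + 1) values over the 7 libraries. The closest was Apc, whose protein belongs to the destruction complex, at 0.0560, followed by Gnptab at 0.0622, Med14 at 0.0833, Plxna2 at 0.0869 and Mtmr10 at 0.0884. The nearest of the other genes followed was Lrp6 at 0.203, and the farthest was Axin2 at 0.520. There were 1.41, 1.29 and 1.36 Dvl3 counts for each Apc count in Traf6 KO, against 1.33, 1.31, 1.27 and 1.42 in control, so the ratio of the pair overlapped between the groups. The likeness was chosen as the smallest of many and is a description over 7 libraries that share depth and composition.

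**Figure D4:**
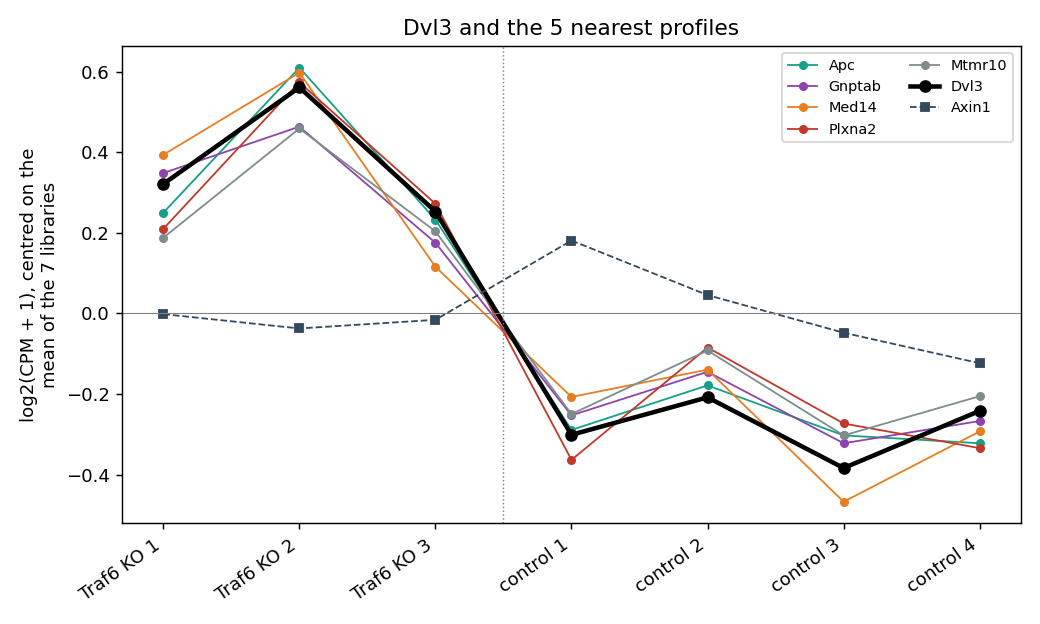
Centred log2(CPM + 1) by library, Traf6 KO 1 to 3 left of control 1 to 4, for Dvl3 (thick black), the 5 genes with the nearest profiles (coloured) and Axin1 (dashed). Dvl3 and its neighbours peak together in Traf6 KO 2 and lie below 0 in every control library, while Axin1 stays near 0 in Traf6 KO.

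The pathway around these genes was read from lists of 128 further genes, 127 of them in the table and 93 tested. edgeR's quasi-likelihood test called 0 of the 93 in either direction, as did limma-voom, and 22 had an unadjusted p under 0.05, beside 16% of all tested genes. DESeq2's Wald test put 12 higher (Apc, Bcl9l, Ccdc88c, Fzd4, Fzd5, Jag1, Lgr4, Lrp4, Ptk7, Rnf43, Znrf3 and, named after its values were seen, Sox9) and 1 lower (Wnt4), beside 3.02% and 1.57% of all tested genes. Without Traf6 KO 3, the poorest in acinar markers of its group, edgeR called 10 of 95 higher, beside 3.43% of all genes tested there. These were Apc, Ccdc88c, Celsr1, Celsr2, Fzd4, Jag1, Lgr4, Lrp4, Ptk7 and Rnf43. Of the 93, 59 had a log2 fold change above 0 and 34 below, beside 50.7% of all tested genes above 0. In 13, every Traf6 KO library was above every control library, and in 2 every one was below, beside 5.58% and 8.68% of all tested genes. The median log2 fold change was 0.11, beside 0.01 over all tested genes. On plain library totals 28 of the 93 had a log2 fold change above 0 and 62 one above the shifted median of all genes, and 0 of the 13 kept every Traf6 KO library above every control library.

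Among the ligands, of which 5 of 19 were tested, Wnt4 was by far the most abundant, and beta cells of mice are known to express it. Wnt4 had 195.9, 176.8 and 178.0 CPM in Traf6 KO 1 to 3, against 329.1, 325.4, 237.2 and 315.3 CPM in control 1 to 4. The groups did not overlap, but the log2 fold change of -0.72 ± 0.15 (SE) had an adjusted p of 0.176 by edgeR. It was -1.20 on plain totals, where the median of all genes was itself shifted to -0.46, and -0.81 with the acinar covariate. The beta-cell marker share was also lower in every Traf6 KO library. On TMM-scaled totals the beta-cell markers summed to 115905, 102180 and 89592 CPM in Traf6 KO 1 to 3. In control 1 to 4 they summed to 189883, 155789, 183152 and 156168 CPM. The part of beta-cell share in the Wnt4 value was not tested. Wnt9a, a ligand measured at a low level, had 1.63, 2.21 and 0.842 CPM in Traf6 KO, against 0.735, 0.418, 0.497 and 0.741 CPM in control (adjusted p 0.223 by edgeR), and its log2 fold change was 1.37 over all libraries and 0.74 with the acinar covariate.

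Of the Frizzled receptors, 7 of 10 were tested and all 7 had a log2 fold change above 0, beside 50.7% of all tested genes. The median of the 7 was 0.10, but on plain totals only 2 were above 0 and 6 above the shifted median of all genes. Fzd4 had 12.3, 16.3 and 8.52 CPM in Traf6 KO, against 7.56, 5.38, 6.20 and 7.52 CPM in control, and Fzd5 had 6.06, 6.30 and 8.13 CPM in Traf6 KO, against 2.91, 5.04, 2.75 and 3.35 CPM in control. Both were higher in every Traf6 KO library, with log2 fold changes of 0.89 ± 0.24 and 0.96 ± 0.26 (SE) and edgeR adjusted p-values of 0.201 and 0.203. Fzd4 was highest in the acinar-rich Traf6 KO 1 and 2, and it stood at 0.52 under the acinar covariate and at 0.41 without the acinar-rich libraries, where Fzd5 stood at 1.21 and 1.12. On the R-spondin axis, which sets how long Frizzled stays at the surface, 2 of 4 tested genes were higher in every Traf6 KO library. That pattern was met by 5.58% of all tested genes. Lgr4, an R-spondin receptor, had 36.5, 29.6 and 19.2 CPM in Traf6 KO, against 16.1, 17.1, 14.0 and 18.1 CPM in control (log2 fold change 0.79 ± 0.21, adjusted p 0.201 by edgeR), and it stood at 0.46 under the acinar covariate and at 0.22 without the acinar-rich libraries. Znrf3, a ubiquitin ligase that removes Frizzled, had 9.59, 11.7 and 15.1 CPM in Traf6 KO, against 7.39, 8.33, 7.26 and 7.59 CPM in control (0.67 ± 0.17, adjusted p 0.201 by edgeR), and stood at 0.84 with the acinar covariate.

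Several other receptors and regulators were also highest in the acinar-rich Traf6 KO 1 and 2. Sostdc1, a secreted inhibitor, had 49.9, 31.6 and 1.36 CPM in Traf6 KO 1 to 3, against 11.4, 0.390, 0.205 and 1.98 CPM in control 1 to 4, with its highest values in the 3 acinar-rich libraries. Celsr1, a planar cell polarity cadherin, had 64.9, 36.7 and 7.58 CPM in Traf6 KO, against 13.2, 3.20, 4.97 and 5.79 CPM in control, in the same order of the acinar-rich libraries. The log2 fold changes of Sostdc1, Celsr1, Lrp4, Ptk7 and Rnf43 were 2.98, 2.41, 2.12, 1.82 and 1.46 over all libraries, and 0.18, 0.76, 0.60, 0.50 and 0.61 with the acinar covariate. Lrp4 turned to -0.33 without the acinar-rich libraries. None of the 5 passed edgeR's test over all 7 libraries, but Celsr1, Lrp4, Ptk7 and Rnf43 were called higher by edgeR without Traf6 KO 3.

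Among the partners of the destruction complex, all 12 listed were tested, 8 had a log2 fold change above 0 and 2 were higher in every Traf6 KO library. The matching shares of all tested genes were 50.7% and 5.58%. Apc (ENSMUSG00000005871) had 44.4, 57.3 and 43.9 CPM in Traf6 KO, against 30.3, 32.7, 29.96 and 29.5 CPM in control, with a gap between the groups and a log2 fold change of 0.66 ± 0.12 (SE) at an adjusted p of 0.176 by edgeR. It was 0.63 with the acinar covariate and 0.17 on plain totals, where the median of all genes was -0.46. Of the 13 Dishevelled partners, all were tested and 3 were higher in every Traf6 KO library, beside 5.58% of all tested genes. The list median was 0.20. Ccdc88c, which encodes the Dishevelled-binding protein Daple, had 18.3, 15.9 and 16.5 CPM in Traf6 KO, against 8.23, 6.24, 8.98 and 10.5 CPM in control, and its log2 fold change of 0.99 ± 0.18 (SE) had an adjusted p of 0.176 by edgeR. Dixdc1, a relative of Axin and Dishevelled that shares their DIX domain, had 26.1, 26.0 and 24.6 CPM in Traf6 KO, against 19.5, 17.9, 22.7 and 21.8 CPM in control (0.32 ± 0.11, adjusted p 0.247 by edgeR). On plain totals Dixdc1 stood at -0.17, beside the median of -0.46 over all genes. The third was Nkd2, named after its values were seen. It had 0.543, 0.485 and 1.10 CPM in Traf6 KO, against 0.385, 0.474, 0.468 and 0.459 CPM in control. The counts behind these levels were 6, 9 and 34 in Traf6 KO and 11 to 17 in control, so the separation of Nkd2 rests on few counts.

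Downstream, 15 nuclear partners of beta-catenin were tested and 2 were higher in every Traf6 KO library, beside 5.58% of all tested genes. Bcl9l, a coactivator that bridges beta-catenin to Pygopus, had 25.2, 28.1 and 27.2 CPM in Traf6 KO, against 21.7, 20.1, 21.1 and 20.8 CPM in control, with a log2 fold change of 0.36 ± 0.09 (SE) and an adjusted p of 0.194 by edgeR, but -0.10 on plain totals. Of the feedback and target genes, 15 of 22 were tested, 10 had a log2 fold change above 0, 2 (Znrf3 and Jag1) were higher in every Traf6 KO library and 1 (Ccnd1, named after its values were seen) was lower in every one. The matching shares of all tested genes were 50.7%, 5.58% and 8.68%. Jag1, a Notch ligand and reported Wnt target, had 8.41, 6.68 and 5.57 CPM in Traf6 KO, against 2.87, 3.76, 4.21 and 3.64 CPM in control (0.92 ± 0.22, adjusted p 0.192 by edgeR). Jag1 stood at 0.90 with the acinar covariate and at 0.52 without the acinar-rich libraries. Axin2, in the same list, had overlapping groups.

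**Figure D5:**
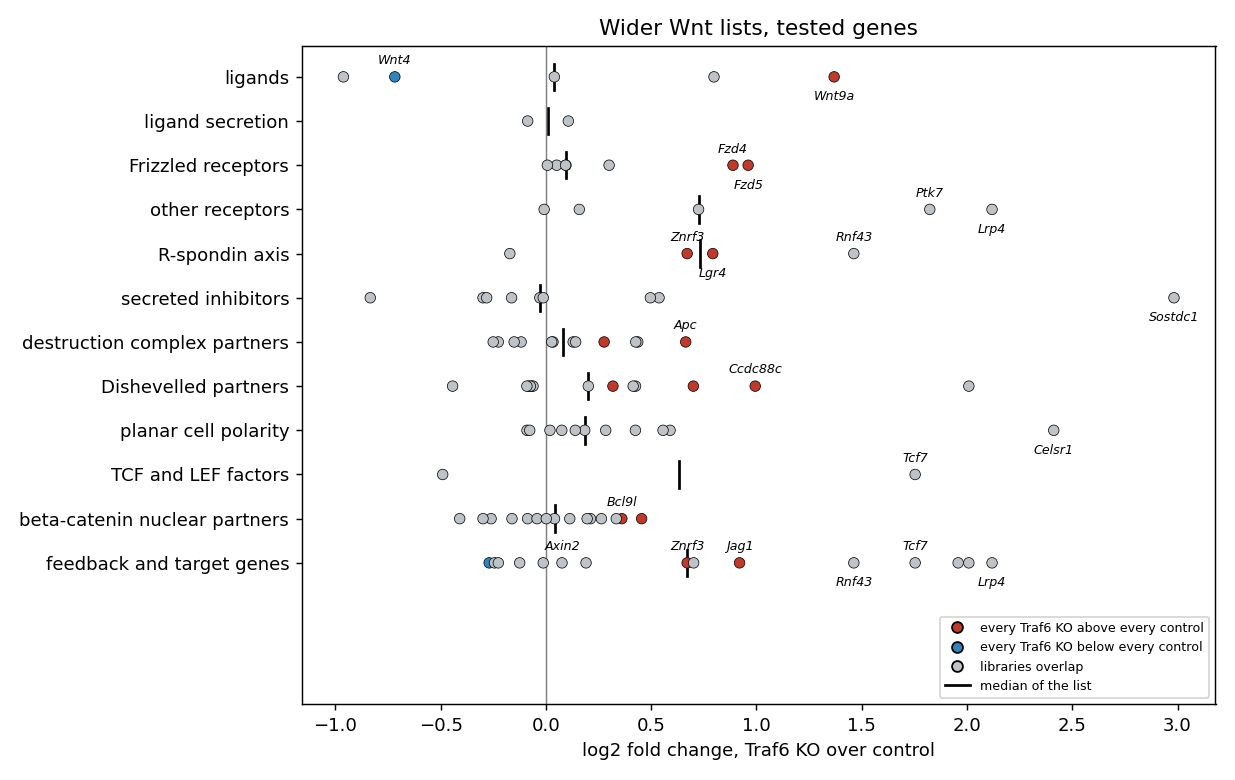
Log2 fold change, Traf6 KO over control (x axis), of the tested genes of each wider Wnt list (rows, some genes standing in more than 1), coloured red where every Traf6 KO library is above every control library, blue where every one is below and grey where they overlap, with a black bar at the list median. Wnt4 stands at -0.72 on the left, and the grey points beyond 1.4 on the right are genes whose libraries overlap.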

How the data were processed

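The deposited table holds raw counts, whole numbers for each gene, in 1 column per library. The submitters' processing notes list GRCm38, FastQC, RSEM 1.3.1 and STAR 2.6.1b without a role, so counts may be rounded estimates in which reads of similar genes are divided by a model. No source used here gives the annotation or the strand setting. Paired 151 bp reads and a tissue DNA kit are named per the labels' protocols.

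Counts were fitted in R 4.3.3 with edgeR 4.0.16 (TMM, quasi-likelihood F test, genotype as the only term, minimum count 10 and total 15, Benjamini-Hochberg adjusted p under 0.05). Limma-voom (limma 3.58.1) and DESeq2 1.42.0 were alternatives. Exon lengths and coordinates came from GENCODE M21 (55141 of 55487 identifiers matched). All library pairs differed by more than sampling noise (lowest chi-square per gene 21.8 over 21 pairs). Nothing says how the mice were related, so p-values measure the spread between these samples.

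The members and lists were chosen with earlier results of these data known. Named genes are the 10 members, Traf6, up to 3 tested genes per wider list with the smallest unadjusted p, and the 5 nearest profiles to Dvl3.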

Additional observations from a re-analysis of the deposited data

Results flagged for a closer look

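In the control group (n = 4), a library was set apart when its gap to the nearest other library, divided by the range of the group, passed Dixon's 95% critical value. This was met in 5 of 56 comparisons of levels and ratios, where chance alone gives about 1 in 20. Lrp6 was lowest in control 1 with 36.5 CPM, beside 40.9 to 41.4 CPM in the other control libraries. Ctnnb1 was lowest in the library labelled control 4 with 253 CPM, beside 276.1 to 278.3 CPM in the others. Wnt4 was lowest in control 3 with 237 CPM, which still lay above every Traf6 KO library. Ptk7 and Sostdc1 were highest in control 1, the acinar-rich control library, with 8.37 CPM and 11.4 CPM.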

How the results depend on the processing

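Dvl3 kept its sign in 21 of 21 alternative settings, with log2 fold changes of 0.18 (plain totals) to 0.76 (Q- and R-tagged libraries only) and of 0.59 to 0.74 when single libraries were left out. Lrp6, Gsk3b, Ctnnb1 and Tcf7l2 kept theirs in 20 of 21, Axin1 in 19, Dvl1 and Lrp5 in 18, Axin2 in 16 and Dvl2 in 15. Dvl3 was known beforehand to be higher in every Traf6 KO library. Its sign in the fits that leave libraries out was thus largely fixed in advance and is no support.

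Over all genes, edgeR called 0 higher and 0 lower. DESeq2's Wald test put 489 higher and 255 lower, the acinar covariate 3 higher, the fit without the 3 acinar-rich libraries 61 higher and 6 lower, and the fit without both acinar-rich Traf6 KO libraries, also chosen after seeing the data, 67 higher and 6 lower. Both fits without acinar-rich libraries leave Traf6 KO 3 as the only Traf6 KO library, assumed to vary like the controls. That library was also the only one with high Xist and no Y-linked counts, so the calls of these fits cannot be assigned to genotype. Leaving out 1 library gave 0 to 568 higher and 0 to 133 lower, the highest counts being those without Traf6 KO 3. With the replicate block, 5 genes were called higher and Dvl3 stood at 0.69. Deviations of same-numbered libraries correlated at 0.62, -0.28 and 0.52, and not every library correlated best with its own number. Acinar share also differed between these libraries, so the correlations cannot decide whether the numbers pair the mice.

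Of 668 alternative values for 32 named genes of the wider lists, 630 kept direction and side of the threshold, 22 passed it, and 16 changed sign. On plain totals, where the median of all genes was -0.46, Porcn was -0.42, Fzd8 -0.14, Fbxw11 -0.18, Dixdc1 -0.17, Celsr2 -0.0227 and Bcl9l -0.10. Porcn was -0.0750 with the acinar covariate, and -0.0393 (without Traf6 KO 1) to 0.199 (without control 1) when single libraries were left out. Without the 3 acinar-rich libraries Porcn was -0.0156, Lrp4 -0.33 and Celsr2 -0.0391, and without both acinar-rich Traf6 KO libraries Porcn was -0.0963, Ror1 -0.12, Lrp4 -0.33, Sostdc1 -1.38 and Celsr2 -0.0702. The causes of these changes were not tested. Among the Wnt pathway members followed, depth limits mostly Axin2 and Tcf7l2, whose lowest counts were 49 and 78. Some named genes of the wider lists rested on fewer counts. Sostdc1 had 7 counts in control 3, Wnt9a had 15 in control 2 and Lrp4 had 27 in Traf6 KO 3, so their fold changes are also limited by depth.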
